A study of Mus musculus with 48 samples.

Results

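The nuclear-encoded subunits of the mitochondrial respiratory chain and of ATP synthase were examined in murine striatal progenitor cells of the STHdh model of Huntington's disease. Members were the genes whose symbols fall into the subunit families Nduf (complex I), Sdh (complex II), Uqcr (complex III), Cox4 to Cox8 (complex IV) and Atp5 (complex V), with a mean log2 abundance of at least 1 over the 48 samples. The complex was assigned by symbol alone, so that Ndufa4, for example, is counted with complex I for its name only. Of 27281 rows in the expression table, 75 carried such a name and 71 reached the minimum, 34 of complex I, 4 of complex II, 8 of complex III, 9 of complex IV and 16 of complex V. The rule used names and overall level only, but it was written with earlier results of these data known.

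RNA was sequenced from 16 conditions with 3 samples each, and all cells spent 24 hours in serum-free medium. STHdhQ7 cells carry wild-type huntingtin and STHdhQ111 cells carry huntingtin with an expanded polyglutamine stretch, each as a single immortalized line from mice of the strain C57BL/6, so that genotype and line cannot be told apart. Both lines received vehicle, and STHdhQ111 cells received each of 14 compounds. Sodium butyrate was given at 1 mM, 4-deoxypyridoxine (DOP) at 4 mM, cysteamine at 250 µM and pizotifen at 5 µM. Diacylglycerol kinase inhibitor II (DKI), selisistat, loxapine, meclizine and cyproheptadine were each given at 10 µM. Fingolimod phosphate was given at 250 nM, trichostatin A at 10 nM, nortriptyline at 1 nM, and haloperidol and nicotinamide at 0.5 nM. From metabolite profiles the study drew 2 groups of compounds, of which Group A holds pizotifen, loxapine and cyproheptadine and Group B holds meclizine and DKI. The 3 samples of a condition were collected in different slots of day and time. Their days were 1, 2 and 3, except that cyproheptadine and DKI were collected on days 2 and 3 only. No source used here says whether the samples of a condition were grown as independent cultures, so p-values measure the spread between these samples only. Read depth is unknown, since the values are not counts. All values below are the authors' normalized log2 abundances or differences between them. Their transformation is not named and low values are compressed, so a difference of 1 need not be a doubling of the RNA. Fitted differences come from limma with the collection day as a term, with a standard error (SE) and a p-value adjusted by the Benjamini-Hochberg method over 13409 genes, and a gene was called where the adjusted p was under 0.05.

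Complexes I to IV pass electrons from NADH and succinate to oxygen, complexes I, III and IV pump protons across the inner mitochondrial membrane as they do so, and complex V uses the returning protons to make ATP. Most subunits are encoded in the nucleus and imported, and they join a small core encoded by mitochondrial DNA. Striatal neurons depend heavily on this pathway, and inhibitors of complex II damage the striatum in animals. The members' mRNAs are mostly short. In GENCODE annotation of GRCm38 their median length was 870 nt against 2861 nt for all genes tested, with a range from 371 nt (Atp5k) to 3171 nt (Sdhc).

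The identity of the cells was checked first. Vim, an intermediate filament of progenitor and mesenchymal cells, was at 14.8 to 15.7 in all samples. The neural progenitor genes Nes and Sox2 were high in STHdhQ7 cells (9.93 to 11.66 and 8.41 to 9.34) and lay no higher than 7.14 and 5.92 in STHdhQ111 cells. Of the other progenitor genes, Pax6 was at 2.69 to 5.50, Msi1 at 4.06 to 4.95 and Fabp7 at 0.62 to 1.14. Of the 6 striatal genes in the table, the transcription factor genes Foxp1 and Meis2 were well expressed, at 8.90 to 10.23 and 7.25 to 8.61, with Foxp1 higher in STHdhQ111 vehicle samples and Meis2 higher in STHdhQ7 samples. Ppp1r1b and Bcl11b were low (1.80 to 2.31 and 0.13 to 0.28), and Drd1 and Gad1, genes of mature striatal neurons, did not exceed -2.17 and -1.11. Of 6 mesenchymal genes, 5 were well expressed, from Dcn at 6.74 to 7.95 up to Col1a1 at 13.6 to 15.1, and Lum was at -0.41 to -0.29. The part of these marker levels in the member values was not tested.

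Tissue-restricted isoforms fell below the minimum. Cox4i2 had a mean of -2.02, Cox6b2 -0.68, Cox6a2 0.016 and Cox7a1 0.59, and none exceeded 0.79 in any sample. Their ubiquitous counterparts Cox4i1, Cox6b1, Cox6a1 and Cox7a2 were all members. The symbol Ndufa13 stood on 2 rows, of which ENSMUSG00000048967 is named Yjefn3 in GENCODE and overlaps Ndufa13 on the same strand. The member Atp5sl carries the name Dmac2 there. A further 7 subunits (Atp5o, Cox5b, Cox7c, Ndufa11, Ndufb4, Ndufc2 and Ndufs5) had several symbols in their name cell and were counted separately.

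Promoter sequences from RefSeq were matched to 56 of the 70 member symbols (GRCm38.p6, 250 bases before to 50 bases after each start). The letters GCGCA and GCGC separated by 1 base of any kind, a form of the site bound by NRF1, a regulator of respiratory chain genes, occurred on either strand in 13 of the 56, or 23.2%, against 5.2% of all 27025 genes with a promoter. The letters CCGGAAG, a form of the ETS site bound by GABPA and related factors, occurred in 16, or 28.6%, against 9.9%. The cAMP response element TGACGTCA was found in 3 (5.4% against 2.0%). The 27025 genes were not limited to those expressed here, while the members had passed the minimum level, so the 2 sets are unlike. The 170 bases before the start are shown for 4 members to which the results below return, with NRF1 and ETS matches in capitals. Sdha (chr13:74350241-74350410, minus strand) fell with 5 compounds, Sdhd (chr9:50603850-50604019, minus strand) was lower in STHdhQ7 cells, Cox6a1 (chr5:115348959-115349128, minus strand) was the complex IV member that differed most between the lines, and Atp5g1 (chr11:96075632-96075801, minus strand) rose with 3 compounds and holds neither motif in the window. The matches do not overlap each other, and they describe letters only.
Sdha: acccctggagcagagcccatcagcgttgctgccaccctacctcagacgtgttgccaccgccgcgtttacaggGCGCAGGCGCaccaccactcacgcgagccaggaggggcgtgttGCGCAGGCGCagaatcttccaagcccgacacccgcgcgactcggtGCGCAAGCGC
Sdhd: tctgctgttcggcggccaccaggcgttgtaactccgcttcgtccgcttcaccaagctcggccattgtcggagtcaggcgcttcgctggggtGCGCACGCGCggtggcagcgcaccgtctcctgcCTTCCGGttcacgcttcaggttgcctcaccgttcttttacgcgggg
Cox6a1: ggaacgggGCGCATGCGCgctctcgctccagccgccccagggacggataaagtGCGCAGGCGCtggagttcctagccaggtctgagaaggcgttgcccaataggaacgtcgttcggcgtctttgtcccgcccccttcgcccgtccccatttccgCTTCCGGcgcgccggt
Atp5g1: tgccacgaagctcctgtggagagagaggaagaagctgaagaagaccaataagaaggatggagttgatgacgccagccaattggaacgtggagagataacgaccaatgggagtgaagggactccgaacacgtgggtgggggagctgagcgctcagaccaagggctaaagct

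Members were called less often than genes in general in most comparisons. The median residual SD was 0.104 over the members and 0.086 over all genes tested, so a lower share need not mean smaller differences. Against STHdhQ111 vehicle, 25 of 71 members (35.2%) were called in STHdhQ7 cells, beside 55.8% of all genes tested (29.2% higher, 26.6% lower). DKI called 14 (19.7%) beside 42.3% of genes (20.4% higher, 21.9% lower), cyproheptadine 11 (15.5%) beside 35.6% (17.5% higher, 18.2% lower) and meclizine 4 (5.63%) beside 26.8% (13.1% higher, 13.6% lower). Loxapine called 3 (4.23%) beside 21.9% (10.1% higher, 11.8% lower) and pizotifen 2 (2.82%) beside 17.9% (8.86% higher, 9.07% lower). Loxapine was also set against nicotinamide and nortriptyline, low-dose compounds of the same collection slots that are not vehicle. There 12 members were called, all lower, with a member median of -0.12, beside 22.8% of genes (11.9% higher, 10.9% lower).

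Trichostatin A called 4 members (5.63%) beside 13.1% of genes (6.41% higher, 6.68% lower), nicotinamide 3 (4.23%) beside 10.4% (2.82% higher, 7.59% lower) and cysteamine 4 (5.63%) beside 7.83% (2.33% higher, 5.50% lower). DOP called 16 members (22.5%) beside 20.1% of genes (8.93% higher, 11.2% lower), all of them higher. Sodium butyrate called 39 (54.9%) beside 37.5% (19.6% higher, 17.8% lower). No member was called by limma with selisistat, nortriptyline, fingolimod phosphate or haloperidol, where 0.515%, 3.83% (0.746% higher, 3.08% lower), 0.0597% and 0% of genes were called and 30, 6, 1 and 0 members had an unadjusted p under 0.05. These comparisons share the vehicle samples and are not independent of each other.

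**Figure D1:**
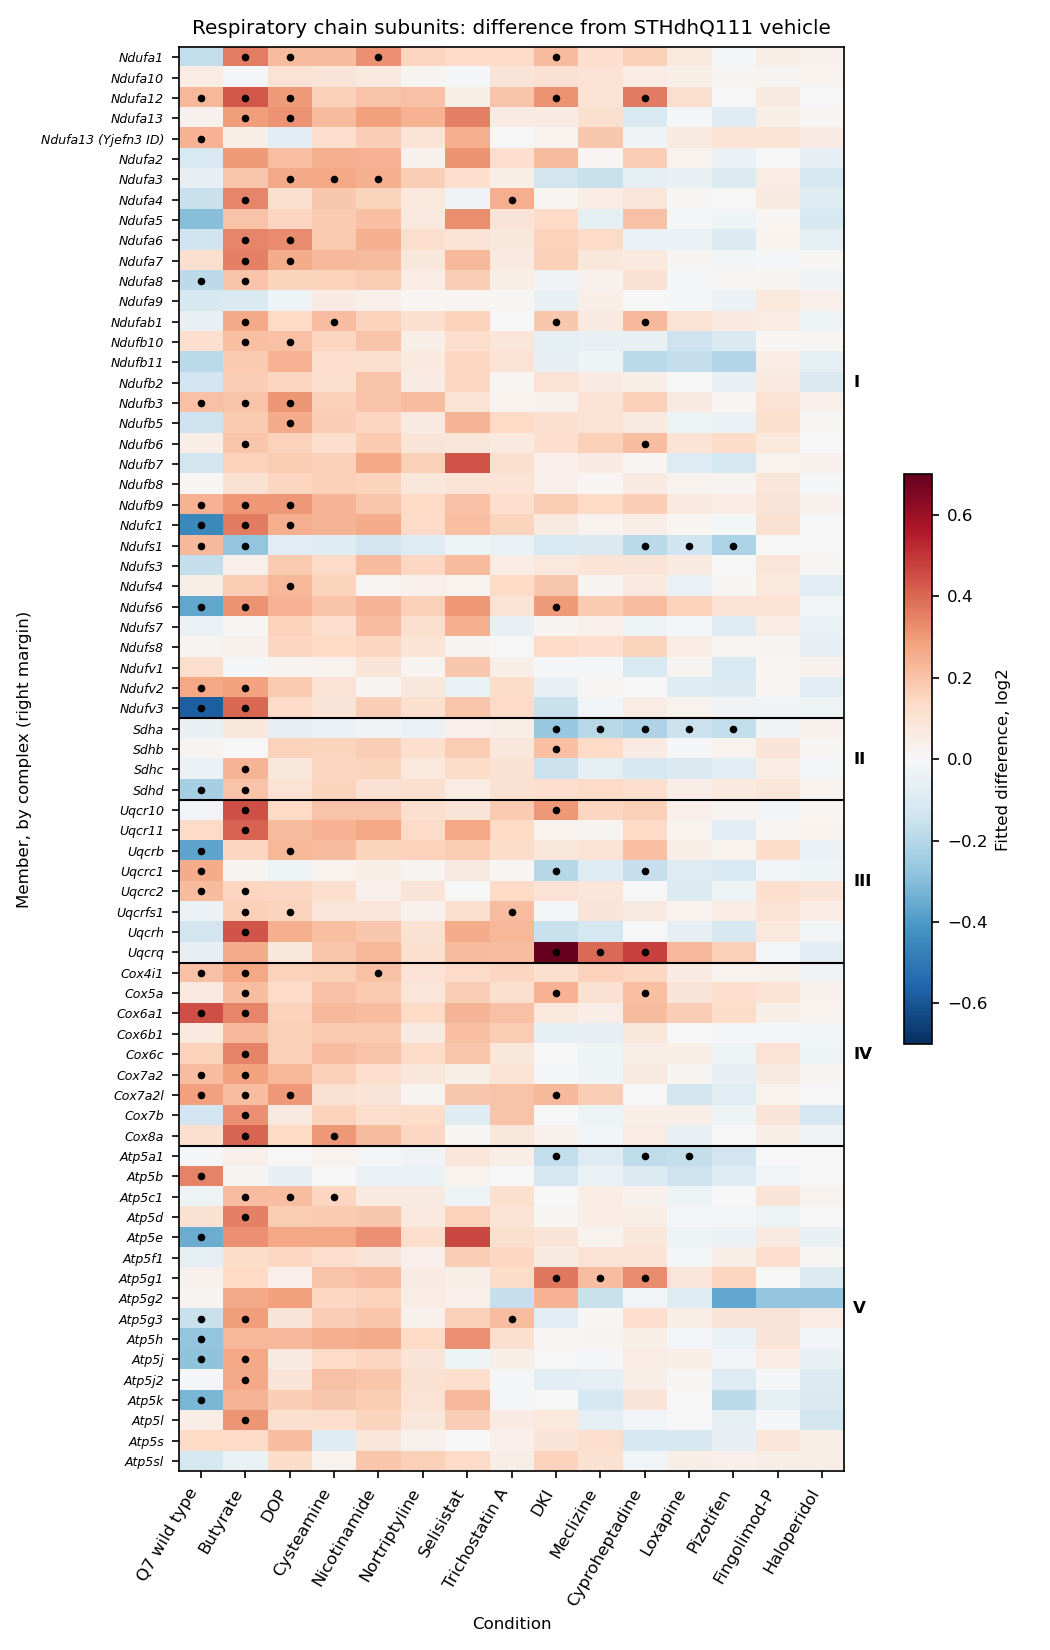
Fitted log2 difference from STHdhQ111 vehicle for 70 of the 71 members (rows, grouped by complex) in 15 conditions (columns); red is higher, blue lower, and a black dot marks a called member. The butyrate column is almost entirely red, the Uqcrq row stands out at DKI, meclizine and cyproheptadine, and the Sdha row is blue across Groups A and B.

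Over the 15 conditions, 17 members were called in none and 16 in 1. The same count over all genes is not given here, so these numbers have no background beside them. The 17 comprised 12 members of complex I (Ndufa2, Ndufa5, Ndufa9, Ndufa10, Ndufb2, Ndufb7, Ndufb8, Ndufb11, Ndufs3, Ndufs7, Ndufs8 and Ndufv1), Cox6b1, Atp5f1, Atp5g2, Atp5s and Atp5sl. Ndufs1, the largest core subunit, Ndufa12, an accessory subunit, and Sdha were each called in 5 conditions.

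Within a sample the members moved together. The median over the 71 members, taken relative to the vehicle mean of each gene, was -0.10, -0.04 and 0.15 in the STHdhQ111 vehicle samples, so that 4, 22 and 67 of the 71 lay above their vehicle mean in these 3 samples of a single condition. It was 0.26, 0.22 and 0.16 with butyrate, 0.23, 0.16 and 0.10 with DOP, 0.13, 0.12 and 0.23 with cysteamine, and 0.16, 0.21 and 0.14 with nicotinamide. All samples of butyrate lay above the highest vehicle sample, while those of DOP, cysteamine and nicotinamide overlapped it. With selisistat the median was 0.07, 0.36 and 0.00, and its replicate 2 was the highest of all 48 samples. In that sample the median of the 13 mitochondrially encoded genes was -1.12, against -0.07 and 0.00 in the other selisistat samples. The residual SD of this median after condition and day was 0.083.

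A correlated shift was seen in other short mRNAs. After condition means were removed, the sample median of the members followed that of 748 other genes with mRNAs under 1000 nt (Pearson's r = 0.956 over 48 samples, slope 1.81) and that of 59 cytosolic ribosomal protein genes (r = 0.944), and had r = -0.358 with that of 12114 longer genes. These sets share libraries and normalization, and the values are a description. With butyrate the mean of the sample medians was 0.21 over the members, 0.17 over other short mRNAs and 0.36 over ribosomal protein genes. The sets did not move equally in every sample, with 0.36 over the members and 0.15 over other short mRNAs in selisistat replicate 2, and with loxapine the means were -0.0016 and 0.050. The difference between the sets was not tested. All 11 compounds other than selisistat, cyproheptadine and DKI were collected in slots that held no vehicle sample. The 6 that shared one set of slots had member means of 0.21 (butyrate), 0.17 (nicotinamide), 0.16 (DOP and cysteamine), 0.086 (nortriptyline) and -0.0016 (loxapine), and the 5 that shared the other had 0.096 (trichostatin A), 0.046 (fingolimod phosphate), 0.040 (meclizine), -0.011 (haloperidol) and -0.025 (pizotifen). Between these sets of slots, nicotinamide and nortriptyline, given at 0.5 and 1 nM, had 10 members higher and 1 lower than haloperidol and fingolimod phosphate, 11 of 71 (15.5%) against a background of 10.9% (4.47% higher, 6.45% lower). The part of slot and of mRNA length in the member values was not tested beyond the alternatives given with each result.

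**Figure D2:**
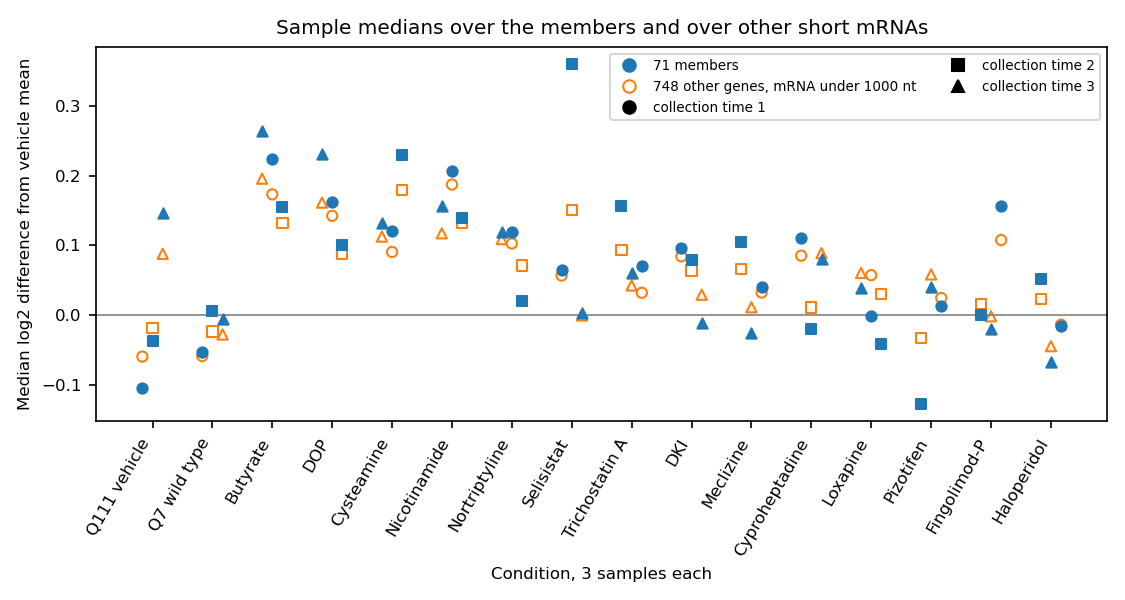
Median log2 difference from the vehicle mean over the 71 members (filled) and over 748 other genes with short mRNAs (open) in each of 48 samples, with marker shape giving the collection time. The vehicle samples span -0.10 to 0.15, selisistat replicate 2 reaches 0.36, and open symbols follow filled ones within most conditions.

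Sodium butyrate, a short-chain fatty acid that inhibits histone deacetylases, raised 37 members and lowered 2. By complex, 16 rose and 2 fell of 34 in complex I, 2 rose of 4 in complex II, 5 of 8 in complex III, 8 of 9 in complex IV and 6 of 16 in complex V. All 9 complex IV members had positive differences, from 0.22 to 0.41, and the median over all members was 0.22 against 0.02 over all genes tested.

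Cox8a, a small subunit of cytochrome c oxidase, was at 11.01, 11.13 and 10.94 with butyrate and at 10.38, 10.65 and 10.82 in vehicle, without overlap. Its difference of 0.41 (SE 0.077, adjusted p = 6.9e-05) was the largest in complex IV. Uqcr10, an accessory subunit of complex III, had the largest rise of all members, from 9.33, 9.59 and 9.83 in vehicle to 10.12, 10.03 and 9.94 (0.45, SE 0.092, adjusted p = 0.00018). Ndufa12 led complex I at 9.31, 9.45 and 9.32 against 8.76, 9.03 and 8.99 (0.43, SE 0.077, adjusted p = 3.2e-05). Uqcrh, the hinge protein of complex III, followed at 0.44 and Uqcr11 at 0.41. Atp5d, the delta subunit of the ATP synthase head, led complex V at 0.35, and Sdhc, a membrane anchor of complex II, rose by 0.24.

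Ndufs1, which carries iron-sulfur clusters of complex I, fell with butyrate. It was at 9.92, 9.93 and 9.99 with butyrate and at 10.26, 10.23 and 10.17 in vehicle, a difference of -0.27 (SE 0.050, adjusted p = 4.6e-05) without overlap. Ndufs3, Ndufs7 and Ndufs8 had differences of 0.03, 0.01 and 0.03 and Ndufv1 -0.01, none called, and Ndufv2 rose by 0.28.

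The butyrate differences were graded by mRNA length. Of the 41 members with mRNAs under 1000 nt, 25 rose and none fell, with a median of 0.27, and of the 30 longer ones 12 rose and 2 fell, with a median of 0.15. Spearman's rho between difference and length was -0.62 across the 71 members, which share libraries and are not independent. It was -0.67 with cysteamine, -0.60 with nicotinamide, -0.49 with nortriptyline, -0.46 with DOP, -0.41 with selisistat, -0.35 with cyproheptadine and -0.25 with loxapine and with trichostatin A. The remaining values were -0.15 with DKI, -0.041 with pizotifen, -0.0063 with fingolimod phosphate, 0.019 with meclizine, 0.20 with haloperidol and 0.22 in STHdhQ7 cells.

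**Figure D3:**
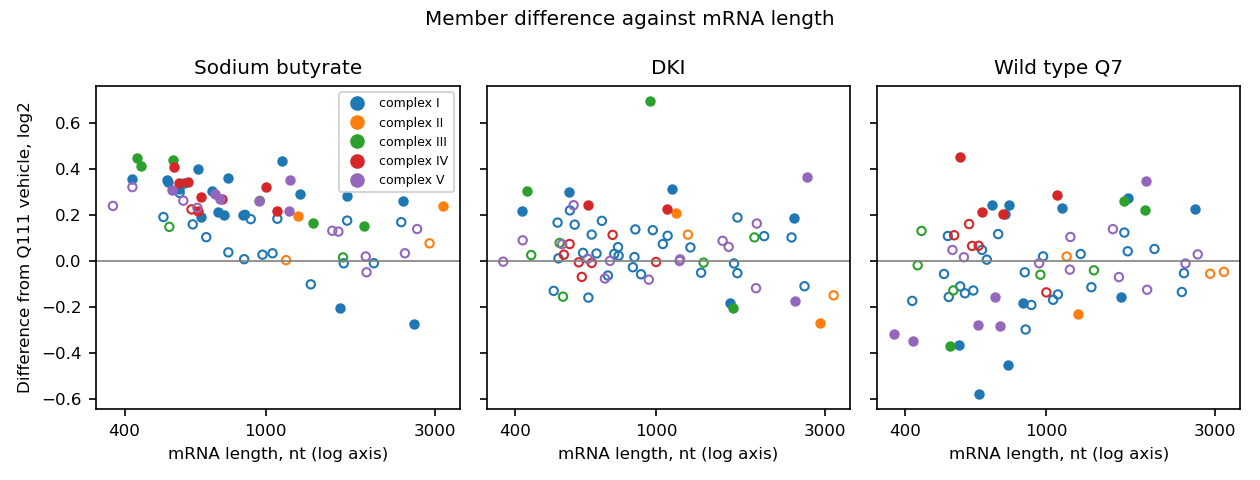
Fitted log2 difference from STHdhQ111 vehicle against mRNA length (log axis) for the 71 members, coloured by complex, with called members filled. With butyrate the short mRNAs sit mostly between 0.1 and 0.45 and the 2 called falls lie above 1000 nt, while with DKI and in STHdhQ7 cells short mRNAs lie on both sides of 0.

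The count with butyrate depended on the vehicle samples and on the control. Leaving out STHdhQ111 vehicle replicate 1 gave 21 calls and leaving out replicate 3 gave 50. Nicotinamide and nortriptyline were collected in the same slots, but the paper counts both among its protective compounds, so they are not vehicle. Against them, 16 members (13 higher, 3 lower) were called beside a background of 30.8%, with a median of 0.10. Uqcr10 (0.29), Uqcrh (0.29), Cox8a (0.23) and Ndufa12 (0.23) stayed called there, as did the fall of Ndufs1 (-0.16). With the sample median of the other short mRNAs as a covariate, 2 members were higher (Ndufa12 0.33, Uqcrc2 0.20) and 15 lower, beside a background of 19.6%. This covariate was added after the shift had been seen, and it removes whatever a compound does to short mRNAs as a class.

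Trichostatin A, also an inhibitor of histone deacetylases, was given at 10 nM, a dose that cannot be matched to 1 mM butyrate. With it 3 members rose (Ndufa4 0.26, Uqcrfs1 0.22, Atp5g3 0.22) and 1 fell, and the butyrate values of the 3 were 0.34, 0.17 and 0.29, all called. With trichostatin A no member was called without STHdhQ111 vehicle replicate 1, without its own replicate 1 or in a fit to the compared samples alone, 2 were called without vehicle replicate 2, and 9 without vehicle replicate 3. All 9 complex IV members had positive differences with trichostatin A, from 0.08 to 0.21, none of them called.

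STHdhQ7 and STHdhQ111 vehicle samples were compared to describe the members between wild-type and mutant cells. Of 25 called members 13 were higher and 12 lower in STHdhQ7 cells, and the median over all members was -0.02. Over all genes 29.2% were higher and 26.6% lower. In complex IV 4 of 9 were higher and none lower, in complex V 1 was higher and 5 lower of 16, in complex I 6 were higher and 5 lower of 34, in complex III 2 were higher and 1 lower of 8, and in complex II 1 was lower of 4. Since the vehicle samples of both lines shared all 3 collection slots, the difference could be taken within slots, where the member median was 0.05, 0.04 and -0.15.

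Cox6a1, the ubiquitous form of subunit 6A of cytochrome c oxidase, was at 11.52, 11.51 and 11.53 in STHdhQ7 cells and at 10.93, 10.99 and 11.28 in STHdhQ111 cells. Its difference of 0.45 (SE 0.094, adjusted p = 8.0e-05) was the largest rise of any member, and the lines did not overlap. Cox7a2l was higher by 0.29 (SE 0.089, adjusted p = 0.0058), Cox7a2 by 0.21 and Cox4i1 by 0.20. Cox6a1 lies on chromosome 5 from 115345642 to 115348981 on the minus strand of GRCm38, with no annotated gene overlapping it.

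Atp5b, the catalytic beta subunit of ATP synthase, was at 14.13, 14.06 and 14.12 in STHdhQ7 cells and 13.74, 13.70 and 13.82 in STHdhQ111 cells (0.35, SE 0.058, adjusted p = 3.0e-06). Its partner in the catalytic head, Atp5a1, had a difference of -0.01. The 5 complex V members that were lower were small subunits, Atp5e (-0.34), Atp5k (-0.32), Atp5h (-0.28), Atp5j (-0.28) and Atp5g3 (-0.16). Atp5e, the epsilon subunit, had the widest error of these (SE 0.135, adjusted p = 0.028).

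In complex I the largest fall and the largest rise were both in the NADH-binding module. Ndufv3 was at 7.66, 7.71 and 7.99 in STHdhQ7 cells and at 8.29, 8.25 and 8.56 in STHdhQ111 cells (-0.58, SE 0.084, adjusted p = 2.3e-07), the largest difference of any member. Ndufv2, which carries an iron-sulfur cluster, was higher by 0.27 (SE 0.073, adjusted p = 0.0017), and Ndufs1 of the same module by 0.23. Ndufc1 (-0.45) and Ndufs6 (-0.36) were lower, both without a core catalytic role. The samples of Ndufv3 did not overlap between the lines.

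Complex III was split by subunit. The core proteins Uqcrc1 and Uqcrc2 were higher in STHdhQ7 cells by 0.26 (SE 0.060, adjusted p = 0.00032) and 0.22, and Uqcrb, a small subunit, was lower by -0.37 (SE 0.085, adjusted p = 0.00029). Uqcrb was at 9.40, 9.46 and 9.46 in STHdhQ7 cells and at 9.69, 9.83 and 9.92 in STHdhQ111 cells, without overlap. The Rieske protein gene Uqcrfs1 (-0.04), Uqcr10 (-0.02), Uqcr11 (0.13), Uqcrh (-0.13) and Uqcrq (-0.06) were not called. In complex II only Sdhd, a membrane anchor, was called (-0.23), and Sdha, Sdhb and Sdhc had differences of -0.05, 0.02 and -0.05.

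Uqcrq stood apart among the members with the Group A and B compounds. It encodes the small ubiquinone-binding subunit of complex III and lies on chromosome 11 from 53427922 to 53430831 on the minus strand of GRCm38, with no annotated gene overlapping it. Its log2 abundance was 10.08, 10.15 and 10.43 in STHdhQ111 vehicle and 10.06, 10.23 and 10.20 in STHdhQ7 cells. It was 11.08, 10.81 and 10.87 with DKI, 10.73, 10.55 and 10.56 with meclizine, and 10.71, 10.61 and 10.78 with cyproheptadine, all above every vehicle sample. With loxapine it was 10.42, 10.53 and 10.39 and with pizotifen 10.24, 10.51 and 10.41, which overlap the vehicle samples.

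Relative to vehicle, Uqcrq rose by 0.70 with DKI (SE 0.111, adjusted p = 2.5e-06), the largest difference of any member in any comparison, by 0.48 with cyproheptadine (SE 0.111, adjusted p = 0.00074) and by 0.39 with meclizine (SE 0.109, adjusted p = 0.0061). Loxapine (0.23) and pizotifen (0.17) were not called. Group B was higher than vehicle by 0.55 and Group A by 0.29, and Group A was lower than Group B by -0.25 (SE 0.071, adjusted p = 0.0035). The DKI difference stayed between 0.61 and 0.82 when any 1 sample was left out, and was 0.51 with the short-mRNA covariate, called in each case. The meclizine call was lost without STHdhQ111 vehicle replicate 1 (0.32) or meclizine replicate 1 (0.33), and against haloperidol and fingolimod phosphate, collected in the same slots, it was 0.44. The Group A call was lost without STHdhQ111 vehicle replicate 1 (0.22) or 2 (0.25).

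Sdha moved the other way. It encodes the catalytic flavoprotein of succinate dehydrogenase and lies on chromosome 13 from 74322254 to 74350280 on the minus strand, where the annotated gene Gm16125 overlaps it on the other strand. It was at 10.97, 10.92 and 10.87 in vehicle, at 10.57, 10.72 and 10.67 with DKI, at 10.72, 10.74 and 10.72 with meclizine, at 10.63, 10.72 and 10.76 with cyproheptadine, at 10.76, 10.75 and 10.80 with loxapine and at 10.75, 10.72 and 10.78 with pizotifen. All 15 samples of the 5 compounds lay below the lowest vehicle sample. The differences were -0.27 with DKI (SE 0.042, adjusted p = 2.2e-06), -0.22 with cyproheptadine, -0.19 with meclizine, -0.17 with pizotifen and -0.15 with loxapine (adjusted p = 0.0076), and all were called. Leaving out single samples moved the DKI value between -0.30 and -0.23, and kept its call. The loxapine call was lost without STHdhQ111 vehicle replicate 1 (-0.13) and in a fit of the compared samples alone.

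The 4 subunits of complex II thus differed in direction. With DKI, Sdhb, the iron-sulfur subunit, was at 10.19, 10.06 and 10.12 against 9.87, 9.85 and 10.03 in vehicle and rose by 0.21 (SE 0.065, adjusted p = 0.0090), while Sdhc (-0.15) and Sdhd (0.12) were not called. In Group B, Sdhb (0.17) and Sdhd (0.12) rose and Sdha fell (-0.23). Sdhb was lower in Group A than in Group B by -0.15 (SE 0.042, adjusted p = 0.0032), and Sdha did not pass that test (0.05).

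**Figure D4:**
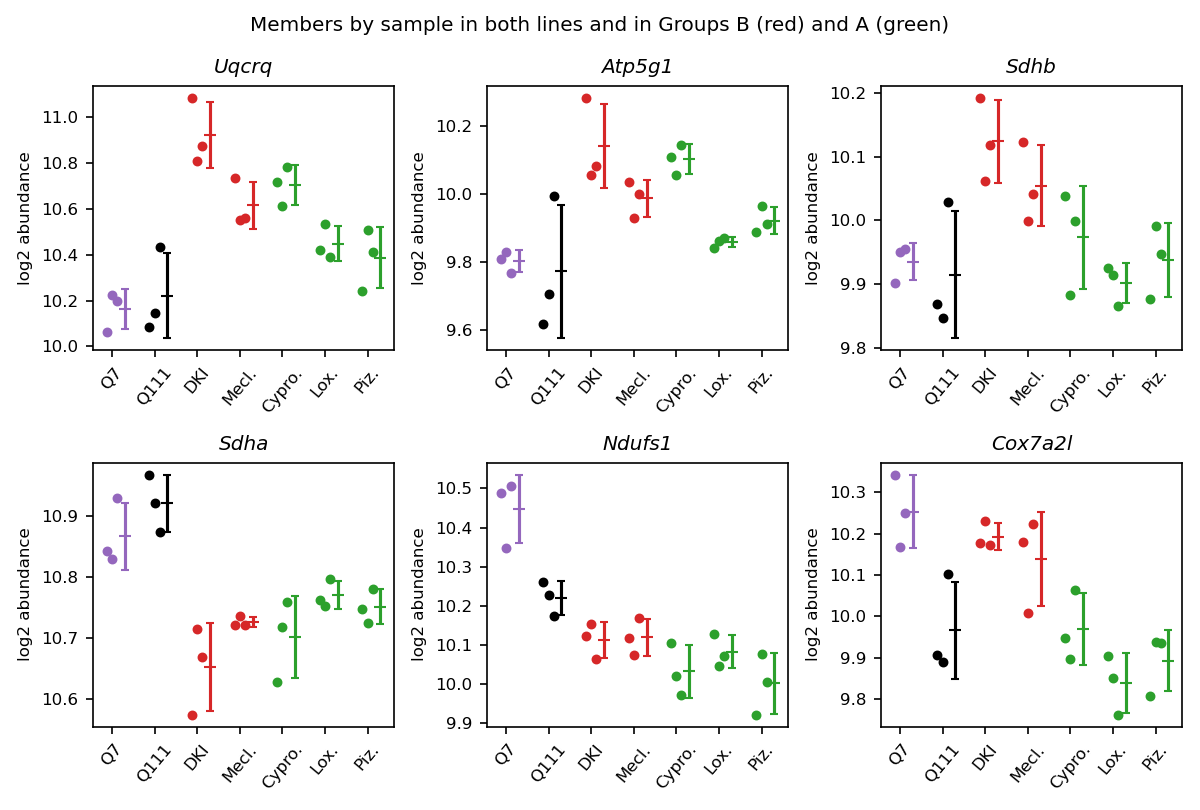
Log2 abundance of 6 members in each sample of both vehicle controls and the 5 compounds of Groups A and B, with the mean and SD (n = 3) beside the points; the axes do not start at 0. Uqcrq lies above every vehicle sample with DKI, meclizine and cyproheptadine, and every Sdha sample of the 5 compounds lies below the vehicle samples.

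Atp5g1, Atp5g2 and Atp5g3 encode the same mature c subunit of the ATP synthase ring from separate genes and gave different values. Atp5g1 was at 10.28, 10.06 and 10.08 with DKI against 9.62, 9.71 and 9.99 in vehicle. With the samples limited to shared slots the DKI (0.22) and cyproheptadine (0.25) calls were lost. In the fit of all samples it rose with DKI (0.37, SE 0.082, adjusted p = 0.00035), cyproheptadine (0.33, adjusted p = 0.0016) and meclizine (0.22, adjusted p = 0.045), and the meclizine call was lost without STHdhQ111 vehicle replicate 1 (0.13). Atp5g3 had differences of -0.08, 0.12 and 0.01 there, none called, but rose with butyrate (0.29) and trichostatin A (0.22), and Atp5g2 was called in none of the 15 conditions, with differences from -0.36 to 0.29. The genes were not compared with each other in a test.

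DKI called 10 members higher and 4 lower, and meclizine 2 and 2. With DKI, Ndufa12 (0.31), Uqcr10 (0.31), Ndufs6 (0.30), Cox5a (0.24), Cox7a2l (0.23), Ndufa1 (0.22) and Ndufab1 (0.19) rose beside Uqcrq, Atp5g1 and Sdhb. Among the falls were Sdha, Uqcrc1 (-0.20) and Atp5a1 (-0.17), which are catalytic or core subunits with mRNAs of 2900, 1653 and 2471 nt. With the vehicle and compound samples limited to shared slots, 3 members were called with DKI, and the share of all genes is not given. With the short-mRNA covariate 6 members were higher and 19 lower, 25 of 71, beside 42.4% of all genes called. No member was called between DKI and meclizine against 8.11% of genes, and 4 had an unadjusted p under 0.05.

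With Group A as a whole 8 of 71 members (11.3%) were called against 32.8% of genes (15.6% higher, 17.2% lower), 3 higher and 5 lower. Those higher were Uqcrq, Atp5g1 and Ndufb6 (0.15), and those lower included Ndufb11 (-0.19), Ndufs1 (-0.18), Sdha (-0.18) and Atp5a1 (-0.16). With Group B 14 (19.7%) were called against 41.0% (19.8% higher, 21.2% lower), 10 higher and 4 lower. Cyproheptadine and pizotifen are close structural relatives, but were given at 10 and 5 µM, so their values are set side by side only. Uqcrq differed from vehicle by 0.48 and 0.17, Atp5g1 by 0.33 and 0.15, Cox5a by 0.21 and 0.12, Ndufs1 by -0.19 and -0.22 and Sdha by -0.22 and -0.17.

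Group A and Group B differed directly in 10 members (14.1%) against 41.3% of all genes (19.9% higher, 21.4% lower), 9 of them lower in Group A. Cox7a2l had the largest difference (-0.27, SE 0.057, adjusted p = 0.00024). It was at 10.18, 10.23 and 10.17 with DKI and 10.18, 10.01 and 10.22 with meclizine, and between 9.76 and 10.06 in the 9 samples of Group A, so that only meclizine replicate 2 overlapped. Ndufa6 (-0.21) and Ndufb11 (-0.14) of complex I, Uqcr10 (-0.15) and Uqcrc2 (-0.14) of complex III, and Atp5s (-0.20) and Atp5sl (-0.12), which share the complex V name, were also lower. Uqcrq and Sdhb were lower as given above. Atp5g3 was the member higher in Group A (0.12).

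DOP, a vitamin B6 antagonist, gave 16 called members, all higher, 12 of them in complex I. Ndufa6 (0.33), Ndufb3 (0.31), Ndufa12 (0.30), Cox7a2l (0.30) and Ndufb9 (0.30) were among the largest. The number was 2 without STHdhQ111 vehicle replicate 1 and 36 without replicate 3, and 3 against the slot-matched low-dose compounds (Ndufs4 0.21, Cox7a2l 0.25, Atp5c1 0.15), beside a background of 10.6%. With cysteamine, a thiol, 4 members were called higher, Cox8a (0.30), Ndufa3 (0.27), Ndufab1 (0.22) and Atp5c1 (0.15), and none against the slot-matched compounds, where 0.119% of genes were called. The number was 0 without STHdhQ111 vehicle replicate 1 or cysteamine replicate 3, 1 without vehicle replicate 2 or cysteamine replicate 1, and 20 without vehicle replicate 3. With nicotinamide, a form of vitamin B3, the 3 were Ndufa1 (0.32), Ndufa3 (0.25) and Cox4i1 (0.21). None was called without STHdhQ111 vehicle replicate 1, without nicotinamide replicate 2 or with the short-mRNA median as a covariate, 1 without vehicle replicate 2 or nicotinamide replicate 3, and 30 without vehicle replicate 3.

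All 13 subunits encoded by mitochondrial DNA were called higher in STHdhQ7 cells, beside 29.2% of all genes tested. Their median was 1.18 against -0.02 for the nuclear-encoded members, led by ND3 (2.04) and ND2 (1.65). All 13 were also called higher in Group A than in Group B (median 0.47), beside 19.9% of all genes, with CYTB at 0.75 and COX3 at 0.69. The median of the nuclear-encoded members was -0.03 there. Relative to the vehicle mean, the sample median of the 13 ran from 0.07 to 0.36 in Group A. In Group B it was 0.03 in meclizine replicate 2 and -0.02 in DKI replicate 2, near the vehicle samples. It ran from -0.40 to -0.27 in the other Group B samples. The 13 are encoded by the same DNA molecule, so their calls are not independent of each other. Against vehicle, 1 of the 13 rose with Group A (ND4L 0.41), beside 15.6% of all genes higher and 17.2% lower. With Group B 2 of the 13 fell (ATP8 -0.50, CYTB -0.50), beside 19.8% of all genes higher and 21.2% lower.

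The nuclear genes that serve the chain without being subunits were taken from lists written with earlier results of these data known, and the lists were not tested against each other or against the members. With Group B 41.0% of all genes were called, 19.8% higher and 21.2% lower. Of 16 complex I assembly factors 7 rose and 1 fell, led by Ndufaf4 (0.61) and Tmem70 (0.27), and of 25 complex IV assembly factors 10 rose and 1 fell, led by Sco2 (0.74), a copper chaperone, and Cox10 (0.31), which makes heme. For complexes II, III and V the counts were 1 of 4 (Sdhaf3 0.25), 1 of 6 (Ttc19 0.14) and 0 of 3. Of 17 regulators of mitochondrial genes 7 rose and 1 fell, among them Ppargc1a (0.49), a coactivator, and Tfam (0.43), which packages mitochondrial DNA. Of the 71 subunits 10 rose and 4 fell. Of 18 genes of the citric acid cycle 3 rose and 4 fell (Dld 0.33, Idh2 -0.25), and of 21 further subunits and carriers 7 rose and 3 fell, led by Coq2 (0.37) and Coq5 (0.32) of ubiquinone synthesis.

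With Group A 15.6% of all genes were higher and 17.2% lower. Of 16 complex I factors 3 rose and none fell (Ndufaf4 0.24), of 25 complex IV factors 5 rose and 1 fell (Sco2 0.57), and of 18 citric acid cycle genes 3 rose and 9 fell (Idh2 -0.26, Ogdh -0.18). In STHdhQ7 cells, beside 29.2% of genes higher and 26.6% lower, 3 complex IV factors were higher and 8 lower (Coa5 -0.76), none of 6 complex III factors was higher and 3 were lower (Uqcc1 -0.60), and 4 of 17 regulators were higher and 2 lower (Ppargc1a -1.03). With butyrate, beside 19.6% of genes higher and 17.8% lower, 5 complex IV factors rose and 3 fell (Cox14 0.42, Cmc2 0.40), and of 21 further subunits and carriers 7 rose and none fell.

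**Figure D5:**
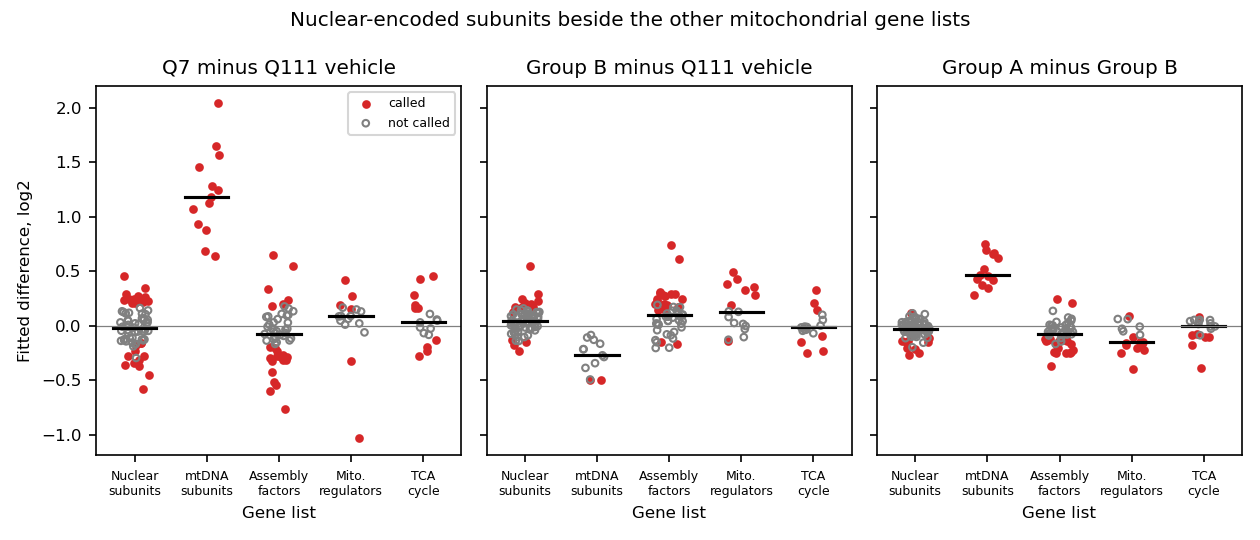
Fitted log2 differences of the 71 nuclear-encoded subunits, 13 subunits encoded by mitochondrial DNA, the assembly factors, the regulators and the citric acid cycle genes in 3 comparisons, with called genes in red and the median as a line. The mitochondrially encoded subunits sit apart in STHdhQ7 cells (median 1.18) and in Group A against Group B (median 0.47), while the nuclear-encoded subunits stay centred near 0.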

How the data were processed

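The authors sequenced poly(A) RNA as directional single-end 50-base reads, trimmed them (Trimmomatic 0.36), counted them with RSEM against the GENCODE M12 transcriptome of GRCm38.p5 and deposited normalized log2 abundances, the transformation of which is not named in the sources used here. The submitters' processing notes also name DESeq2. The values are not counts, so the study's count test could not be used. They carry no length scaling, so levels were not compared between genes.

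Rows with a symbol and a mean of at least 1 were tested (13409 genes) with limma 3.58.1 in R 4.3.3, without a pseudocount, in a single model of all 48 samples with 16 conditions and the collection day (30 residual degrees of freedom, variance trend, two-sided). A gene was called at a Benjamini-Hochberg adjusted p under 0.05. Members and lists were chosen with earlier results of these data known. Members named with values were, by rule, the largest called rise and fall of each complex in 7 main comparisons, isoform sets, all Sdh and Uqcr members, and the members called most often or never. Others were chosen after their values were seen. The values of 1 member are not reported here, and it stays in the counts. Alternatives varied the minimum, the day, time and replicate terms, scaling, variance trend, samples and controls. On data simulated for meclizine against vehicle over 13409 genes, 89 of 100 genes changed by 0.5 and 100 of 100 changed by 1 were recovered, with 5 unchanged genes called. The simulated noise was independent between genes. These rates therefore do not cover a shift that members share within a sample, or changes smaller than 0.5. mRNA lengths and positions came from GENCODE annotation of GRCm38, and promoters from RefSeq. Whether counting used strand is not given in the sources used here, and 10 members overlap another gene on the same strand and 27 on the other.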

Additional observations from a re-analysis of the deposited data

Results flagged for a closer look

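Of 38 values examined, medians over members and levels of named members, in Group A (9 samples) and Group B (6 samples), 3 had a sample far from the others of its group, where chance flags about 1 in 20. Sdha in Group A had its lowest value, 10.63, in cyproheptadine replicate 1. Uqcrc1 in Group A had its lowest value, 10.86, in cyproheptadine replicate 2. Cox7a2l in Group B had its lowest value, 10.01, in meclizine replicate 2, which is the sample that overlapped Group A.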

How the results depend on the processing

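The counts with butyrate, DOP, cysteamine and nicotinamide had their lowest and highest values without single vehicle samples (the lowest also without cysteamine replicate 3 or nicotinamide replicate 2), and the highest with selisistat came without its own replicate 3. Leaving out 1 sample at a time, the number called ranged from 21 to 50 with butyrate, 2 to 36 with DOP, 0 to 20 with cysteamine, 0 to 30 with nicotinamide, 0 to 26 with selisistat, 0 to 9 with trichostatin A, 0 to 4 with loxapine, 2 to 4 with pizotifen, 0 to 3 with nortriptyline, 2 to 9 with meclizine, 8 to 16 with cyproheptadine, 9 to 20 with DKI, 19 to 26 in STHdhQ7 cells, 5 to 10 in Group A, 6 to 20 in Group B, 7 to 13 between these groups, 0 to 1 between DKI and meclizine, and 1 to 22 between nicotinamide with nortriptyline and haloperidol with fingolimod phosphate (the low-dose contrast).

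With the collection time added, DOP gave 10, nicotinamide 1, Group A 5 and the low-dose contrast 7. Without the minimum mean, the same gave 8, 1, 5 and 6. Without the collection day nicotinamide gave 7, and with samples shifted to a common median the low-dose contrast gave 7. Fitted to the compared samples alone, loxapine gave 1, trichostatin A 0, DKI 4, nicotinamide 17, pizotifen 5, cysteamine 30, Group A 13, Group B 8 and the low-dose contrast 31. Against slot-matched low-dose compounds, butyrate gave 16 (beside 30.8% of all genes), loxapine 12 (22.8%) and DOP 3 (10.6%). Pizotifen gave 4 (17.3%) and cysteamine 0 (0.119%) there. With shared slots only, cyproheptadine gave 7 and DKI 3. With the 7 subunits of several symbols, nicotinamide gave 5. For the other refits of this paragraph, and for those leaving out 1 sample, the share of all genes is not given. Their counts have no background beside them. The median member difference against slot-matched compounds was 0.099 with butyrate, 0.023 with DOP, 0.041 with cysteamine and -0.12 with loxapine, and with shared slots only it was -0.030 with cyproheptadine.

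Counts with the short-mRNA covariate, chosen after the data were seen, have the share of all genes called in parentheses. Butyrate gave 17 of 71 members (19.6%), meclizine 15 (27.8%), cyproheptadine 21 (34.8%), loxapine 14 (22%), DOP 9 (8.29%) and DKI 25 (42.4%). Nicotinamide gave 0 (0.0298%), pizotifen 11 (20.4%) and cysteamine 2 (0.738%). Group A gave 24 (33.6%), Group B 24 (40.8%), Group A against Group B 20 (44.2%), DKI against meclizine 2 (10.2%) and the low-dose contrast 0 (0.0224%). Under this covariate the butyrate differences turned negative for Cox6a1 (-0.056), Cox5a (-0.091), Ndufb6 (-0.10), Ndufs6 (-0.017), Cox7a2l (-0.11), Sdhc (-0.0086), Ndufa6 (-0.049), Cox7a2 (-0.075), Uqcr11 (-0.070), Uqcrfs1 (-0.020) and Uqcrh (-0.032), as did Uqcrb with DOP (-0.028) and Ndufa6 in the low-dose contrast (-0.024). The cause was not tested.

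With the replicate number as a block in place of the collection day, 25 members were called in STHdhQ7 cells, 14 with DKI and 15 in Group B, and the block changed no other count by more than 1 member. The mean correlation between same-numbered samples was over 0.1 in 9 of 120 condition pairs, and no conclusion on pairing is drawn from it. Over the named members and all alternatives, 1695 values kept their direction and side of the threshold, 346 kept their direction but not their call and 13 reversed. The unknown read depth, the unnamed transformation and the 3 samples per condition limit the precision, and low values are compressed toward a floor.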
